A study of Homo sapiens with 6 samples.

Results

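Nuclear-encoded subunits of the mitochondrial respiratory chain and ATP synthase were examined in the human prostate cancer line C4-2B-ENZR, which resists the androgen receptor antagonist enzalutamide. They were the protein-coding genes whose symbols follow the NDUFA, NDUFB, NDUFC, NDUFS, NDUFV, SDH, UQCR, COX or ATP5 subunit patterns, 81 of the 57820 genes in the files. Of these, 37 belong to complex I by name, 4 to complex II, 8 to complex III, 14 to complex IV and 18 to ATP synthase, also called complex V. Another 51 genes fit the patterns but are not annotated as protein coding, and were left out. The rule goes by symbol alone. It puts NDUFA4, now known as a complex IV subunit, with complex I, and it misses COX4I1, CYC1 and NDUFAB1, whose values are given separately.

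The libraries were made from total RNA of cells carrying an siRNA against RUVBL1 (3 libraries) or a negative-control siRNA (3 libraries). RUVBL1 is an AAA+ ATPase of chromatin-remodelling and protein-assembly complexes, and the study's title ties it to enzalutamide resistance. All cells were of this 1 resistant line, and all had been transfected. The sources used here do not give the siRNA sequence, its dose or the time of harvest. Estimated counts summed to 18985542, 25697804 and 23526449 in RUVBL1 siRNA libraries 1 to 3, and to 24720504, 36054489 and 30011235 in control siRNA libraries 1 to 3. The labels do not state that replicates came from separate cultures. The p-values therefore measure only how far these libraries scatter, and that scatter may be technical.

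RUVBL1 (ENSG00000175792.7) had 2725, 2618 and 2710 normalized counts in the RUVBL1 siRNA libraries, against 4681, 4654 and 4758 in the control siRNA libraries. Its RUVBL1 siRNA mean was thus 57.1% ± 1.23 of that in the controls (SD, n = 3; edgeR's adjusted p = 3.74e-10), a partial knockdown. All 9 luminal prostate markers were above 10 CPM (counts scaled to the library total) in every library. Of 14 markers of immune, endothelial, stromal and basal cells, 7 were at 0 in all libraries, and the 14 together summed to 15.2 to 16.2 CPM after RUVBL1 siRNA and to 18.97 to 21.73 after control siRNA. Both replicate 1 libraries stood apart: 541 of 14111 genes with at least 20 counts in each replicate 2 and 3 library were at 0 in both, and 0 of the 81 subunit genes were among them.

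The respiratory chain passes electrons from NADH (complex I) and succinate (complex II) through ubiquinone, complex III, cytochrome c and complex IV to oxygen, pumping protons that ATP synthase uses to make ATP. Its enzymes are built from subunits of both genomes: a few hydrophobic core subunits are encoded in mitochondrial DNA, and the others in the nucleus. Prostate epithelium is known for a truncated citric acid cycle that releases citrate, and prostate cancer cells are known to oxidise more of it.

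After RUVBL1 siRNA, small changes in opposite directions were found in every complex other than complex II. Of the 76 subunit genes tested, 16 rose and 17 fell at an edgeR's adjusted p under 0.05, and 43 did not pass. The 33 called are 43.4% of those tested, against 42.2% of the 16006 genes tested in all (19.1% higher and 23.1% lower), so their share lies near the background. In bulk samples, less RNA of a gene per cell and fewer cells that express it cannot be told apart. The log2 fold changes of the subunit genes ran from -0.31 to 0.29 with a median of -0.0021, against a median of 0.012 over all genes. Their median size without sign was 0.076, against 0.193 over all genes. These genes are highly expressed, so genes with a mean of at least 1000 normalized counts were taken as a second background, chosen after seeing the data. Of the 75 subunit genes at that level 44.0% were called, against 68.3% of 5328 genes (24.1% higher and 44.2% lower), and the median size without sign was 0.076, against 0.151. The groups of 3 libraries did not overlap for 39 subunit genes (20 above and 19 below the control libraries), against 52.6% of all genes tested (25.3% above and 27.4% below).

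**Figure D1:**
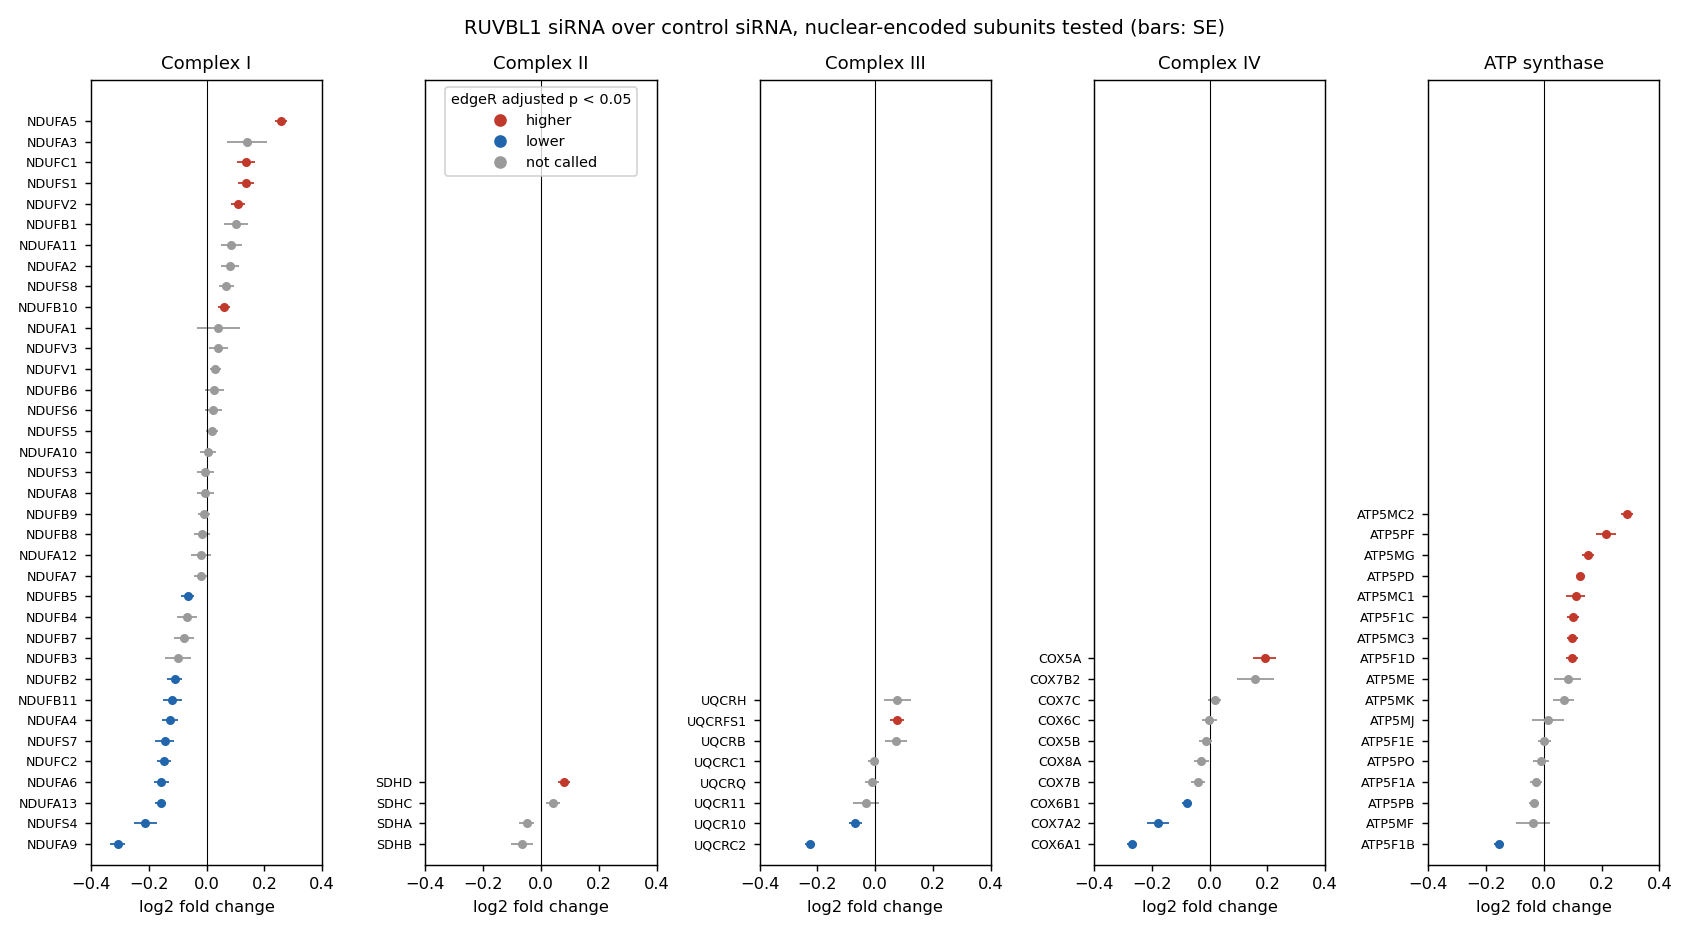
Log2 fold change of RUVBL1 siRNA over control siRNA for 75 of the 76 subunit genes tested, 1 panel per complex. Points are edgeR estimates, bars are their SE, and colour gives the call. All values lie between -0.31 and 0.29. ATP synthase has 8 genes called higher and 1 called lower (47.1% and 5.88%, against 19.1% and 23.1% of all genes tested).

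The 5 genes that failed the filter on low counts are isoforms of restricted expression. COX6A2, a heart and skeletal muscle isoform of a complex IV subunit, was at 0 in all libraries, and COX7A1, another, was at 0 to 5 normalized counts. COX6B2 (0 to 6 normalized counts) and COX8C (0 to 3) are known from testis, and ATP5MGL was at 0 to 8. They were near 0 in both groups, so the filter did not favour genes high in 1 group. Counts were also divided by the median length of each gene's annotated transcripts, which may differ from the expressed length, so levels compare only roughly. On that scale the highest member of each complex was ATP5F1B with 1557 CPM per kilobase, COX6A1 with 1098, NDUFB4 with 1022, UQCRQ with 621 and SDHD with 237.

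To show the start regions of genes that moved most within complexes I and IV and of the top riser of ATP synthase, their promoter entries in RefSeq on GRCh38.p14 are shown from 250 bases before to 50 bases after the annotated start, 5′ to 3′ on the gene's strand. Where 3 starts are listed (NDUFA5 and ATP5MC2) the one first in the table is shown. The entries are NDUFA5 (chr7:123601602-123601901, minus strand), NDUFA9 (chr12:4648864-4649163, plus strand), COX5A (chr15:74938024-74938323, minus strand), COX6A1 (chr12:120437863-120438162, plus strand) and ATP5MC2 (chr12:53676034-53676333, minus strand). Capitals mark matches on either strand to GCGCANGCG (the motif of nuclear respiratory factor NRF1), CCGGAAGT (ETS factors, GABPA among them), AAGATGGC (YY1) or GGGCGG (SP1).
NDUFA5: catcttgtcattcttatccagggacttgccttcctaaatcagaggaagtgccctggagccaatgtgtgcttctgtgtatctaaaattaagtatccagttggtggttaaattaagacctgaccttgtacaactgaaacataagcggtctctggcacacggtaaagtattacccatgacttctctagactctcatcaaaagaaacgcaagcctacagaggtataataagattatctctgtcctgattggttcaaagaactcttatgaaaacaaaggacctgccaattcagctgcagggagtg
NDUFA9: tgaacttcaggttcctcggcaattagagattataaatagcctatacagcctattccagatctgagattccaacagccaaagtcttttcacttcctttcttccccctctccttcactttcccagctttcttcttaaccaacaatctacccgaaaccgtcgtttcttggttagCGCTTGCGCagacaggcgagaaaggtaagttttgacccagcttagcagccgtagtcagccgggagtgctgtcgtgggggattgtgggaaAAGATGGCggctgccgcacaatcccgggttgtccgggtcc
COX5A: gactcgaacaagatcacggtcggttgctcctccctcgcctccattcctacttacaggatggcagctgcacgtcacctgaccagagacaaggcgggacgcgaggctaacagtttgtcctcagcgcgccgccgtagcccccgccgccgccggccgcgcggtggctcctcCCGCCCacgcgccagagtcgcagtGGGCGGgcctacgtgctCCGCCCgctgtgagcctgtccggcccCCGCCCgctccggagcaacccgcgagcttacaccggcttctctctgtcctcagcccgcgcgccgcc
COX6A1: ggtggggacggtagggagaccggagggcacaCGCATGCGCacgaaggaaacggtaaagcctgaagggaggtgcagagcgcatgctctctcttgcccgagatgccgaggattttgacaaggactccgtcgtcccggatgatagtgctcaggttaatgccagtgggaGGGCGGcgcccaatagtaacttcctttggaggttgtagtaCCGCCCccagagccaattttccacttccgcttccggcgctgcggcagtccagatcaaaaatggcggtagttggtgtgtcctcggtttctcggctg
ATP5MC2: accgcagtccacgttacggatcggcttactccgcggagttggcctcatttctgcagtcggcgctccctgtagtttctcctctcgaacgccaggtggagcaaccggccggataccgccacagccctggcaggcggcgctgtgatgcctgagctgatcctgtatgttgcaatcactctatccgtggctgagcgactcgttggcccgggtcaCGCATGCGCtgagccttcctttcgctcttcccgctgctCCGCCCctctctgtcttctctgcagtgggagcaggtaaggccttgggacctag

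The NDUFA9 entry holds 1 match to GCGCANGCG and 1 to AAGATGGC, and those of COX6A1 and ATP5MC2 hold 1 match to GCGCANGCG each, beside 2 and 1 matches to GGGCGG. COX5A holds 4 matches to GGGCGG, and the NDUFA5 entry holds none of the 4 motifs. Promoter entries were matched for 66 subunit genes, with 78 starts. GCGCANGCG was found in 29.5% of these 78, against 7.52% of all 35116 promoters. AAGATGGC was found in 16.7%, against 2.89%, CCGGAAGT in 15.4%, against 4.14%, and GGGCGG in 60.3%, against 45.0%. GCGCANGCG stood in at least 1 entry of 6 of 14 subunit genes that rose, 4 of 12 that fell and 12 of 37 that were not called, so genes of each outcome had it. A match is a description of the letters and does not show that a factor binds.

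Complex I, the NADH dehydrogenase, had 5 genes higher, 11 lower and 21 not called, with a median log2 fold change of -0.0046. The shares are 13.5% higher and 29.7% lower. Over all genes tested they were 19.1% and 23.1%, and over genes with at least 1000 normalized counts 24.1% and 44.2%. NDUFA9 (ENSG00000139180.6), an accessory subunit of the matrix arm near the ubiquinone site, had 3843, 3786 and 3715 normalized counts in the RUVBL1 siRNA libraries, against 4840, 4603 and 4594 in the control siRNA libraries. The highest RUVBL1 siRNA library lay well below the lowest control library, and the log2 fold change was -0.31 ± 0.03 (SE; edgeR's adjusted p = 1.37e-06). NDUFA5 (ENSG00000128609.10), another accessory subunit of the matrix arm, had 5445, 5542 and 5451 normalized counts after RUVBL1 siRNA, against 4676, 4476 and 4599 after control siRNA. Here every RUVBL1 siRNA library was above every control library, and the log2 fold change was 0.26 ± 0.02 (SE; edgeR's adjusted p = 1.12e-06). Within a library, a ratio of 2 genes does not depend on the scaling: NDUFA5 had 1.45 ± 0.03 counts per NDUFA9 count after RUVBL1 siRNA and 0.980 ± 0.019 after control siRNA (SD, n = 3 each; exact two-sided permutation p = 0.1, the smallest that 3 against 3 libraries can give). This ratio and the others below were chosen after the values were seen. Since NDUFA5 was above and NDUFA9 below the controls in every RUVBL1 siRNA library, their ratio had to separate the groups. Its p was thus fixed by the choice of genes and adds no test. The same holds below for COX5A per COX6A1 and for the c subunit genes per ATP5F1B.

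NDUFS4, an accessory subunit of the NADH-oxidising module whose loss causes Leigh syndrome, had 1608, 1579 and 1525 normalized counts after RUVBL1 siRNA, against 1728, 1913 and 1816 after control siRNA. The groups did not overlap, and it fell by 0.21 on the log2 scale (SE 0.04; edgeR's adjusted p = 0.000914). NDUFA13, also known as GRIM-19, had 6470, 6434 and 6441 normalized counts after RUVBL1 siRNA, against 7109, 7319 and 7174 after control siRNA, with no overlap and a log2 fold change of -0.16 (edgeR's adjusted p = 1.19e-05). NDUFA6, an accessory subunit of the LYR family, averaged 4014 ± 45 normalized counts after RUVBL1 siRNA and 4473 ± 119 after control siRNA (SD, n = 3 each; edgeR's adjusted p = 0.000238). Others that fell included NDUFC2, NDUFS7, NDUFA4, NDUFB11, NDUFB2 and NDUFB5, with log2 fold changes between -0.15 and -0.07. Their calls, and that of NDUFA6, did not hold when libraries were scaled by their totals alone. That of NDUFB5 was also lost with DESeq2 and on leaving out any single library other than control replicate 1. Nor did the NDUFB5 call hold with length and GC offsets or with at least 50 counts in 3 libraries.

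The genes that rose beside NDUFA5 were NDUFC1, a small subunit of the membrane arm, NDUFS1 and NDUFV2, which carry iron-sulfur clusters, and NDUFB10. NDUFC1 averaged 2087 ± 14 normalized counts after RUVBL1 siRNA and 1897 ± 50 after control siRNA (SD, n = 3 each; log2 fold change 0.14, edgeR's adjusted p = 0.00339). NDUFS1, the largest of the core subunits, had 3364, 3474 and 3473 normalized counts in RUVBL1 siRNA libraries, against 3083, 3141 and 3158 in control libraries (log2 fold change 0.14, edgeR's adjusted p = 0.00105). NDUFV2 averaged 7823 ± 233 and NDUFB10 6848 ± 66 normalized counts after RUVBL1 siRNA, against 7255 ± 168 and 6569 ± 182 after control siRNA (SD, n = 3 each; edgeR's adjusted p = 0.00337 and 0.0377). The NDUFB10 call was lost on leaving out any single library other than control replicate 3. It was also lost with nuclear genes only, with no filter on low counts, with length and GC offsets and with replicates 2 and 3 only. The 7 nuclear core subunits, which hold the redox centres, were thus divided, with 2 that rose, 2 that fell, NDUFS7 among them, and 3 not called. Of the 30 accessory genes, 3 rose and 9 fell (10% and 30%, beside the shares over all genes given above).

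**Figure D2:**
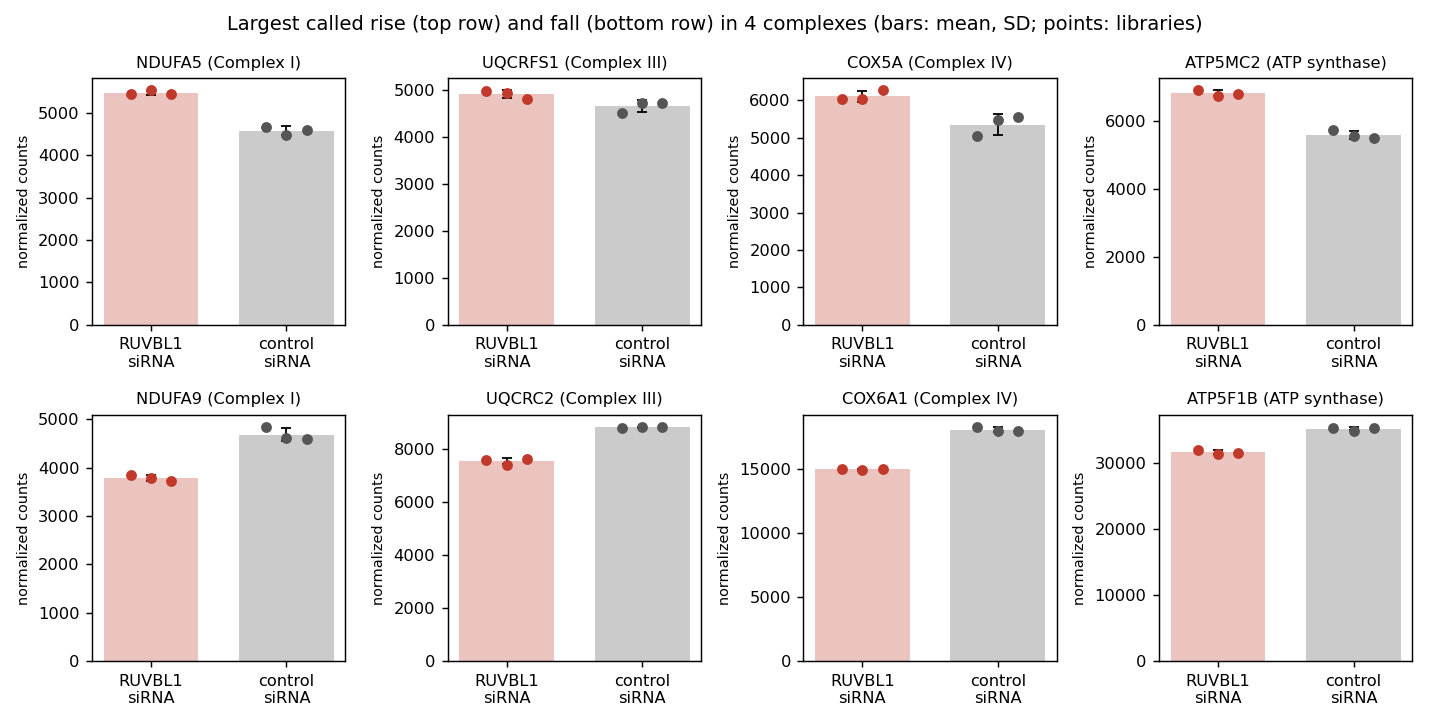
Normalized counts of the member with the largest called rise (top row) and fall (bottom row) in complexes I, III, IV and ATP synthase. Bars are means, whiskers SD and points the 3 libraries of each group; in all 8 genes the groups do not overlap, with COX6A1 at 14956 to 15037 after RUVBL1 siRNA and 17947 to 18300 after control siRNA.

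Complex II, succinate dehydrogenase, is the 1 complex built from nuclear genes alone and also works in the citric acid cycle. SDHD, a membrane anchor, had 4941, 5027 and 4913 normalized counts after RUVBL1 siRNA, against 4621, 4725 and 4737 after control siRNA, and rose by 0.08 on the log2 scale (SE 0.02; edgeR's adjusted p = 0.00747). This call did not hold with length and GC offsets or with no filter on low counts. The other anchor, SDHC, had 3555, 3583 and 3606 after RUVBL1 siRNA, against 3506, 3467 and 3460 after control siRNA, which did not overlap but did not pass the test (adjusted p = 0.173). SDHA, the flavoprotein, averaged 96.7% and SDHB, the iron-sulfur subunit, 95.7% of the control mean, with overlapping groups (edgeR's adjusted p = 0.168 and 0.203). SDHA was called lower without RUVBL1 siRNA replicate 1 (edgeR's adjusted p = 0.0475), SDHB with no filter on low counts (0.0401), and both with the replicate block and length and GC offsets together.

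In complex III, the cytochrome bc1 complex, 1 gene rose, 2 fell and 5 were not called. The shares are 12.5% higher and 25% lower. Over all genes tested they were 19.1% and 23.1%, and over genes with at least 1000 normalized counts 24.1% and 44.2%. UQCRC2 (ENSG00000140740.6), a core protein of the matrix side, had 7581, 7415 and 7647 normalized counts after RUVBL1 siRNA, against 8794, 8839 and 8819 after control siRNA. The groups were far apart compared with their spread, and the log2 fold change was -0.22 ± 0.02 (SE; edgeR's adjusted p = 7.32e-07). Its partner UQCRC1 overlapped between groups, with 8304, 8148 and 8234 after RUVBL1 siRNA against 8159, 8220 and 8401 after control siRNA (log2 fold change -0.0055, edgeR's adjusted p = 0.868). UQCRC2 counts per UQCRC1 count were 0.917 ± 0.010 after RUVBL1 siRNA and 1.07 ± 0.02 after control siRNA (SD, n = 3 each; exact permutation p = 0.1). UQCRFS1, the Rieske iron-sulfur protein, averaged 4916 ± 88 normalized counts after RUVBL1 siRNA and 4664 ± 123 after control siRNA (edgeR's adjusted p = 0.0239), and the small subunit gene UQCR10 averaged 4858 ± 77 after RUVBL1 siRNA and 5093 ± 126 after control siRNA (edgeR's adjusted p = 0.031; SD, n = 3 each). The UQCR10 call did not hold with libraries scaled by totals alone or with at least 50 counts in 3 libraries. It was also lost without RUVBL1 siRNA replicate 1 or 2 or control replicate 2 or 3. That of UQCRFS1 was lost without either replicate 1 library and without RUVBL1 siRNA replicate 2. The UQCRFS1 call was also lost with replicates 2 and 3 only and with no filter on low counts.

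In complex IV, cytochrome c oxidase, 1 gene rose, 3 fell and 6 were not called. The shares are 10% higher and 30% lower. Over all genes tested they were 19.1% and 23.1%, and over genes with at least 1000 normalized counts 24.1% and 44.2%. COX6A1 (ENSG00000111775.2), the widely expressed isoform of subunit 6A, had 15037, 14956 and 15022 normalized counts after RUVBL1 siRNA, against 18300, 17982 and 17947 after control siRNA. This gap is many times the spread within either group, and the log2 fold change was -0.27 ± 0.02 (SE; edgeR's adjusted p = 1.68e-07). COX5A (ENSG00000178741.7), a nuclear subunit of the matrix side, had 6030, 6026 and 6274 normalized counts after RUVBL1 siRNA, against 5043, 5467 and 5551 after control siRNA. The groups did not overlap, control library 1 was the lowest of its group, and the log2 fold change was 0.19 ± 0.04 (SE; edgeR's adjusted p = 0.00743). COX5A counts per COX6A1 count were 0.407 ± 0.009 after RUVBL1 siRNA and 0.296 ± 0.018 after control siRNA (SD, n = 3 each; exact permutation p = 0.1). COX7A2 averaged 4983 ± 151 normalized counts after RUVBL1 siRNA and 5638 ± 260 after control siRNA (edgeR's adjusted p = 0.00606), and COX6B1 7301 ± 97 after RUVBL1 siRNA and 7709 ± 89 after control siRNA (edgeR's adjusted p = 0.00374; SD, n = 3 each). Neither call held with libraries scaled by totals alone, nor that of COX6B1 with length and GC offsets. Of the isoform pairs, COX7B2, known from testis, had 458, 435 and 462 normalized counts after RUVBL1 siRNA, against 381, 421 and 412 after control siRNA, with no overlap but an edgeR's adjusted p of 0.0685, while COX7B and COX8A were not called (log2 fold changes -0.04 and -0.03).

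ATP synthase had 8 genes higher, 1 lower and 8 not called, and a median log2 fold change of 0.08. The shares are 47.1% higher and 5.88% lower. Over all genes tested they were 19.1% and 23.1%, and over genes with at least 1000 normalized counts 24.1% and 44.2%. That median was above 0 under every alternative fit, from 0.039 to 0.183. The highest came with library totals, where the median over all genes was itself 0.111. The c subunit forms the rotor ring of the membrane part, and 3 genes (ATP5MC1, ATP5MC2 and ATP5MC3) encode the same mature protein with different targeting sequences. ATP5MC2 (ENSG00000135390.13) had 6920, 6761 and 6821 normalized counts after RUVBL1 siRNA, against 5731, 5558 and 5506 after control siRNA. It had the largest rise of all subunit genes tested, with no overlap and a log2 fold change of 0.29 ± 0.02 (SE; edgeR's adjusted p = 1.74e-07). ATP5MC1 and ATP5MC3 rose by 0.11 and 0.10 on the log2 scale (edgeR's adjusted p = 0.0166 and 0.000853), but the ATP5MC1 call was lost on leaving out RUVBL1 siRNA replicate 2 or 3 or control replicate 1 or 2. ATP5MC2 supplied 39.0% ± 0.448 of the counts of the 3 genes after RUVBL1 siRNA and 36.04% ± 1.01 after control siRNA, and ATP5MC3 39.2% ± 0.361 after RUVBL1 siRNA and 41.3% ± 0.447 after control siRNA (SD, n = 3 each; exact permutation p = 0.1 for both).

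ATP5F1B (ENSG00000110955.4), the catalytic beta subunit, was the member of ATP synthase that fell. It had 31924, 31382 and 31497 normalized counts after RUVBL1 siRNA, against 35328, 34888 and 35345 after control siRNA. The groups were well separated, with a log2 fold change of -0.16 ± 0.02 (SE; edgeR's adjusted p = 2.84e-05). The alpha subunit gene ATP5F1A, which forms the catalytic hexamer with it, had 27076, 26290 and 26817 normalized counts after RUVBL1 siRNA, against 27455, 26969 and 27227 after control siRNA, which overlapped (edgeR's adjusted p = 0.331). It was lower after RUVBL1 siRNA in each of the 3 pairs of libraries with the same number, a pairing the labels do not state. With the replicate block it was called lower (log2 fold change -0.03, edgeR's adjusted p = 1.59e-05). With library totals it was called higher (log2 fold change 0.07, edgeR's adjusted p = 0.0177). It was not called with DESeq2, with length and GC offsets or with replicates 2 and 3 only. ATP5F1B counts per ATP5F1A count were 1.18 ± 0.01 after RUVBL1 siRNA and 1.29 ± 0.01 after control siRNA, and counts of the 3 c subunit genes per ATP5F1B count were 0.554 ± 0.006 after RUVBL1 siRNA and 0.442 ± 0.004 after control siRNA (SD, n = 3 each; exact permutation p = 0.1 for both).

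The other ATP synthase genes that rose came from several places in the enzyme. In the peripheral stalk, which holds the catalytic head still, ATP5PF had 2757, 2748 and 2867 normalized counts after RUVBL1 siRNA, against 2305, 2398 and 2513 after control siRNA (log2 fold change 0.21 ± 0.04, SE; edgeR's adjusted p = 0.000348). ATP5PD, of the same stalk, had 7193, 7327 and 7380 after RUVBL1 siRNA, against 6675, 6656 and 6727 after control siRNA (log2 fold change 0.13 ± 0.02, SE; edgeR's adjusted p = 7.41e-05). In both the groups did not overlap, while the stalk genes ATP5PB and ATP5PO were not called. Among the small membrane subunits, which help the enzyme pair into dimers, ATP5MG had 8503, 8610 and 8693 after RUVBL1 siRNA, against 7541, 7923 and 7745 after control siRNA (log2 fold change 0.15 ± 0.02, SE; edgeR's adjusted p = 7.13e-05), and the 4 others tested were not called. In the central stalk, ATP5F1C (gamma) and ATP5F1D (delta) rose by 0.10 each on the log2 scale (edgeR's adjusted p = 0.00246 and 0.00157), and ATP5F1E (epsilon) had a log2 fold change of 0.0018. The ATP5F1D call did not hold with length and GC offsets.

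**Figure D3:**
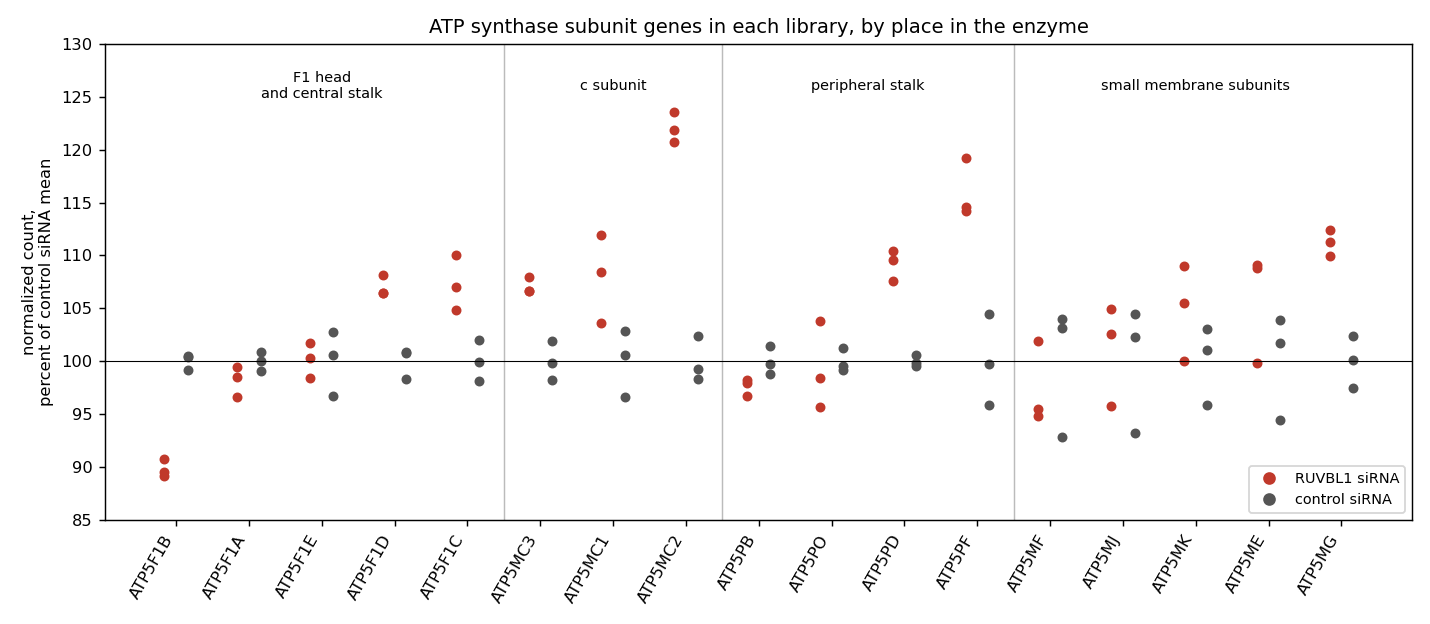
Normalized counts of the 17 ATP synthase genes tested, as a percentage of the control siRNA mean, by place in the enzyme. Each point is a library, with RUVBL1 siRNA to the left of control siRNA; ATP5MC2 and ATP5PF lie highest after RUVBL1 siRNA, at 122% and 116% of the control mean on average, and ATP5F1B lowest, at 89.8%.

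The direction of the smaller changes depended on how libraries were scaled. With libraries scaled by their totals alone, 49 subunit genes were higher and 6 lower, against 31.1% and 14.4% of all genes, and over all genes 68.4% of calls were higher, against 45.3% with TMM factors. Library totals moved the median of all genes by 0.099 on the log2 scale, and the medians of complexes I, II, III and IV lay between 0.079 and 0.096 on that scale, below the median of 0.111 over all genes, with ATP synthase at 0.183. Across all 81 genes, the members took 1.79%, 1.79% and 1.80% of all counts after RUVBL1 siRNA, against 1.67%, 1.70% and 1.71% after control siRNA. As a share of the counts of nuclear genes they took 2.02% ± 0.007 after RUVBL1 siRNA and 1.96% ± 0.016 after control siRNA (SD, n = 3 each). In summed normalized counts the order was the opposite and the groups overlapped, at 456450 ± 3579 after RUVBL1 siRNA and 462310 ± 7779 after control siRNA. Blocking on replicate number, a pairing the labels do not state, gave 25 members higher and 21 lower, against 23.4% and 25.6% of all genes. The 13 members called only with the block were ATP5F1A, NDUFB3, NDUFB4 and NDUFB7, which were lower, and ATP5ME, ATP5MK, NDUFA2, NDUFA3, NDUFA11, NDUFB1, NDUFS8, UQCRB and UQCRH, which were higher, with log2 fold changes from -0.10 to 0.14. Of the 33 members called, 17 were called in the same direction under every alternative, 11 higher (ATP5F1C, ATP5MC2, ATP5MC3, ATP5MG, ATP5PD, ATP5PF, COX5A, NDUFA5, NDUFC1, NDUFS1 and NDUFV2) and 6 lower (ATP5F1B, COX6A1, NDUFA13, NDUFA9, NDUFS4 and UQCRC2).

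**Figure D4:**
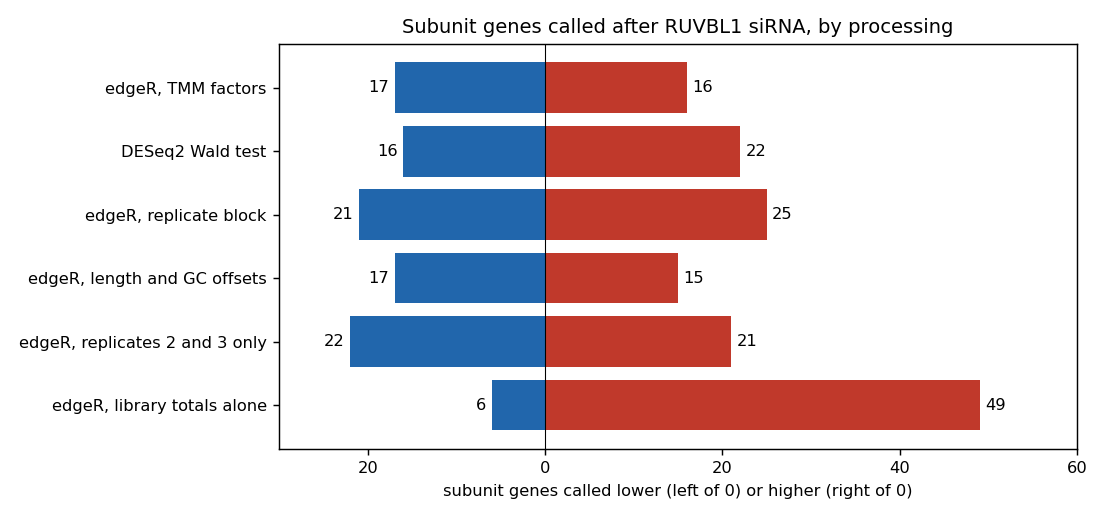
Number of subunit genes called lower (left of 0) and higher (right of 0) after RUVBL1 siRNA under 6 ways of processing the same counts. TMM scaling in edgeR gives 17 lower and 16 higher, and scaling by library totals alone gives 6 lower and 49 higher.

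The mitochondrially encoded subunits of the same complexes, which are joined to these nuclear ones in the finished enzymes, were all lower. All 13 fell, with log2 fold changes from -0.47 to -0.22 and a median of -0.38, and all 13 remained lower with libraries scaled by their totals (median -0.28). With length and GC offsets 10 of the 13 were called, and MT-ND3 (adjusted p = 0.277 in edgeR), MT-ND4L (0.172) and MT-ATP8 (0.336) were not, at log2 fold changes of -0.27, -0.44 and -0.58. They took 11.6%, 11.3% and 11.3% of all counts after RUVBL1 siRNA, against 13.8%, 13.5% and 13.5% after control siRNA. In complex I all 7 fell, MT-ND5 by 0.42 and MT-ND4 by 0.36 on the log2 scale. Of its 37 nuclear subunits 11 fell (29.7%), 5 rose and 21 were not called. Of all genes tested 23.1% fell. Of genes with a mean of at least 1000 normalized counts, a level that all 37 had, 44.2% fell. In complex III MT-CYB fell by 0.37, while UQCRC2 and UQCR10 fell, UQCRFS1 rose and 5 nuclear subunits were not called. In complex IV all 3 fell, MT-CO1, the catalytic subunit, by 0.38, beside 3 nuclear subunits that fell, 1 that rose and 6 not called. In ATP synthase both fell, while 8 nuclear subunits rose, ATP5F1B fell and 8 were not called. The edgeR's adjusted p was 1.18e-09 for MT-CYB, 1.22e-09 for MT-CO1, 1.64e-09 for MT-ND5 and 2.10e-09 for MT-ND4.

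**Figure D5:**
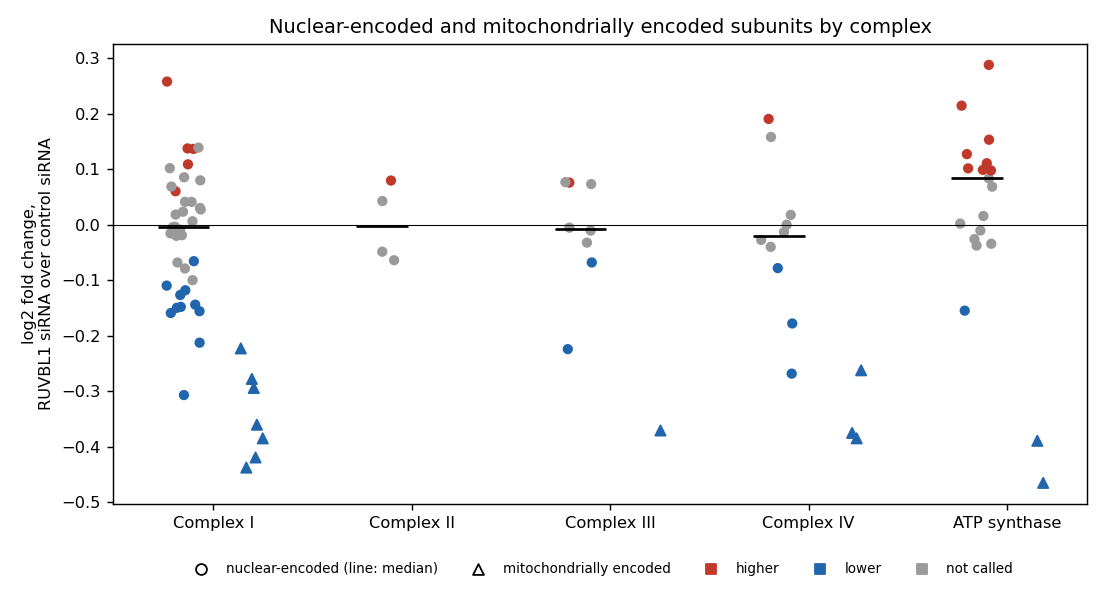
Log2 fold change of RUVBL1 siRNA over control siRNA for nuclear-encoded subunits (circles; line, median of the complex) and mitochondrially encoded subunits (triangles). Colour gives the edgeR call at an adjusted p under 0.05; the 13 mitochondrially encoded genes lie between -0.47 and -0.22, and the medians of the nuclear-encoded ones between -0.02 and 0.08.

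Nuclear genes tied to the chain but outside the symbol rule had 3 higher and 1 lower of 7 tested. The 3 that rose were the carrier CYCS, the inhibitor ATP5IF1 and the paralogue NDUFA4L2. Of the missed subunits CYC1, COX4I1 and NDUFAB1, only CYC1 was called in the main fit, and it was lower. CYC1, cytochrome c1 of complex III, averaged 6072 ± 154 normalized counts after RUVBL1 siRNA and 7467 ± 100 after control siRNA (SD, n = 3 each; log2 fold change -0.30, edgeR's adjusted p = 2.49e-07), and was lower with library totals too. ATP5IF1, the inhibitor of ATP hydrolysis by ATP synthase, rose by 0.13 and CYCS, cytochrome c, by 0.05 on the log2 scale (edgeR's adjusted p = 0.000113 and 0.0332). NDUFA4L2, a paralogue of NDUFA4 induced by hypoxia, was low, with means of 137 normalized counts after RUVBL1 siRNA and 65.5 after control siRNA and no overlap (log2 fold change 1.06, edgeR's adjusted p = 0.000539). The CYCS call did not hold with no filter on low counts, with length and GC offsets or on leaving out any single library other than RUVBL1 siRNA replicate 1. COX4I1 and NDUFAB1 had log2 fold changes of -0.03 and 0.02 and were not called, but COX4I1 was called lower with the replicate block (edgeR's adjusted p = 0.0021) and both were called higher with library totals.

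Of the 52 assembly factors tested, 10 were higher and 10 lower, and 19 higher and 6 lower with library totals. The 10 are 19.2% in either direction, against 19.1% higher and 23.1% lower of all genes tested. For complex I 4 were higher and 3 lower of 16, with NDUFAF3 up by 0.26 and NDUFAF8 by 0.17, and TIMMDC1 at -0.24 and NDUFAF1 at -0.25 (log2; edgeR's adjusted p between 9.33e-06 and 0.00588). For complex III 1 was higher and 4 lower of 6. UQCC1, which acts early on cytochrome b, averaged 364 ± 18 normalized counts after RUVBL1 siRNA and 504 ± 21 after control siRNA (SD, n = 3 each; log2 fold change -0.47, edgeR's adjusted p = 8.62e-05). BCS1L, which inserts the Rieske protein, and TTC19 had log2 fold changes of -0.23 and -0.28, and LYRM7, the chaperone of the Rieske protein, 0.12 (edgeR's adjusted p = 0.00013, 0.000193 and 0.0106), and the LYRM7 call was lost with length and GC offsets and without replicate 3 of either group. For complex IV 4 were higher (COX20, COA5 and the copper chaperone COX17 among them, at 0.26, 0.37 and 0.22) and 2 lower (COX15 among them, at -0.28) of 21, with edgeR's adjusted p between 6.50e-06 and 0.000422 for these. For ATP synthase, ATPAF1, which assembles the catalytic head, averaged 4155 ± 36 normalized counts after RUVBL1 siRNA and 3372 ± 64 after control siRNA (SD, n = 3 each; log2 fold change 0.30, edgeR's adjusted p = 8.01e-07). TMEM70, needed for the c ring, had a log2 fold change of -0.21 (edgeR's adjusted p = 0.00217) that did not hold with library totals. Of the 4 complex II factors 0 were called.

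Among 15 regulators of respiratory chain genes, 4 were higher and 5 lower, and 7 higher and 3 lower with library totals. The 4 and 5 are 26.7% and 33.3%, against 19.1% and 23.1% of all genes tested. PPRC1, a coactivator related to PGC-1alpha, had a log2 fold change of -0.40, LRPPRC, which stabilises mitochondrial mRNA, -0.21, and POLRMT, the mitochondrial RNA polymerase, -0.24 (edgeR's adjusted p = 2.04e-05, 2.97e-05 and 0.000456). The transcription factor gene YY1 rose by 0.22 (edgeR's adjusted p = 5.80e-05). PPARGC1A, the gene of PGC-1alpha itself, also rose, at low means of 32.6 normalized counts after RUVBL1 siRNA and 14.0 after control siRNA. Its log2 fold change was 1.22 (edgeR's adjusted p = 0.00533). SLIRP rose by 0.08 (edgeR's adjusted p = 0.0373), a call lost with length and GC offsets (0.577). TFAM was not called (log2 fold change -0.0017). NRF1 and GABPA, whose motifs were counted above, were not called (log2 fold changes 0.08 and 0.11, edgeR's adjusted p = 0.317 and 0.056), though both were called higher with library totals. Of 13 citric acid cycle enzymes 1 was higher (SUCLG2, 0.19) and 6 lower (7.69% and 46.2%), but with library totals 5 were higher and 2 lower. Among those lower were IDH3A at -0.23 and MDH2 at -0.12 (edgeR's adjusted p between 0.000171 and 0.000696 for these and SUCLG2). Of 76 mitochondrial ribosomal proteins 9 were higher and 35 lower (11.8% and 46.1%), and with library totals 22 were higher and 13 lower. They were led by MRPL41 at 0.64, MRPL36 at -0.46, MRPS28 at -0.36 and MRPL32 at -0.40 (edgeR's adjusted p between 6.03e-08 and 4.44e-06). Of genes with at least 1000 normalized counts 24.1% were higher and 44.2% lower. The share lower in both lists lies near that background, and the share higher lies under it. The citric acid cycle enzymes all reached that level on average. The ribosomal list was not cut at it (lowest mean 307), so its comparison is rough.

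Of the 9 luminal prostate markers 6 were lower and 0 higher (5 lower and 2 higher with library totals). Of all genes tested 23.1% were lower, and of those with at least 1000 normalized counts 44.2%. KRT8 was at -0.49, STEAP2 at -0.44 and FOLH1 at -0.35 (log2; edgeR's adjusted p between 4.08e-09 and 2.27e-08). The 9 summed to 4068 to 4248 CPM after RUVBL1 siRNA and to 4661 to 4812 after control siRNA. Of the markers of other cell types 3 were tested, and ACTA2 had a log2 fold change of -1.33 (edgeR's adjusted p = 1.45e-06). The part of these differences in the subunit values was not tested.

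Reads of processed pseudogenes can be shared with their parent genes. Of 184 pseudogenes of members 15 passed the filter. The 4 with the most counts, COX6A1P2, NDUFV2P1, SDHAP1 and SDHAP4, held between 3.98% and 5.81% of the normalized counts of their parents and were not called, though COX6A1P2 was called lower with the replicate block (log2 fold change -0.17, edgeR's adjusted p = 0.0113), with length and GC offsets and without control replicate 1. UQCRFS1P1, named after its values were seen, averaged 153 ± 3.50 normalized counts after RUVBL1 siRNA and 57.1 ± 17.3 after control siRNA (SD, n = 3 each; log2 fold change 1.42, edgeR's adjusted p = 9.25e-05), which is 2.20% of the UQCRFS1 level over all libraries.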

How the data were processed

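RNA sequencing libraries of 3 RUVBL1 siRNA and 3 control siRNA samples were grouped by their titles. The authors deposited estimated counts for each gene, without scaling (from the values: at least 0, mostly whole, with differing totals). Bowtie 0.12.2 and 2 mouse builds, mm8 and mm9, stand in the submitters' processing notes, although the files hold human identifiers. The counter, human build, annotation and strand setting are not stated in the sources used here. Reads of overlapping, antisense or near-identical genes may therefore not have been separated.

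Counts were rounded and fitted with edgeR 4.0.16 in R 4.3.3 (filterByExpr, TMM factors, robust quasi-likelihood test, group as the only term), with two-sided p-values adjusted by Benjamini-Hochberg over 16006 genes and a threshold of 0.05. An adjusted p in the text is from this fit unless an alternative fit is named with it. The main fit was also run on simulated data, and the outcome is not given here. Normalized counts were scaled to the mean effective library size of 26348516. SE is the log2 fold change divided by the square root of its F statistic. Symbols came from a table of gene names, and gene type, length and GC content from GENCODE 29.

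The members and lists were chosen with earlier results of these data known. Genes named were RUVBL1, up to 4 called members with the largest rises and falls per complex, all SDH genes, the highest member per kilobase, filtered members, isoform families, up to 4 called genes with the smallest p per list, and the 4 pseudogenes with the most counts, apart from a few that are not reported here. Other members, and PPARGC1A, SLIRP and TFAM, were named where a count, ratio or contrast called for it, after their values were seen. Deviations from group means correlated between libraries of the same number (0.939, 0.819 and 0.823 over all genes), and a replicate block was fitted as an alternative. The labels do not state pairing. Replicates 2 and 3 correlated about as well across numbers (0.817 and 0.807), so pairing within these is not shown and only replicate 1 stood apart. Over the subunit genes the same correlations were 0.597, 0.121 and 0.538 for the same number, and 0.145 and 0.321 across numbers. Alternatives were DESeq2 1.42.0, limma-voom (limma 3.58.1), DESeq2 size factors, library totals, nuclear genes only, 2 other count filters, the replicate block, length and GC offsets with and without the block, a p bounded by counting noise, replicates 2 and 3 only, and leaving out each library.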

Additional observations from a re-analysis of the deposited data

How the results depend on the processing

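The split between higher and lower members moved most with scaling, and the cause was not tested. Of the 33 calls, 22 held with library totals, 16 higher and 6 lower. With library totals alone, 49 members were higher and 6 lower (complex I 21 and 3, II 2 higher, III 5 and 1, IV 7 and 1, ATP synthase 14 and 1). There 49 and 7 did not overlap above and below, for which no share over all genes is given here. With that scaling 31.1% of all genes were called higher and 14.4% lower. The 49 and 7 are therefore not read as a result about the members. Medians were 0.097 over all members and 0.095, 0.096, 0.091, 0.079 and 0.183 for complexes I to V. With library totals 11 of the 33 called members lost their call. Of the 76 members 24 changed sign, to log2 fold changes between 0.0203 and 0.0990, of which 14 were then called higher. Among the 24 were COX6B1 (0.0208), COX7B (0.0593), COX8A (0.0717), NDUFB4 (0.0312), NDUFB5 (0.0334), SDHA (0.0504), SDHB (0.0350), UQCR10 (0.0311), and UQCRQ (0.0885), with COX7B, COX8A, UQCRQ, UQCRC1 and ATP5F1A among the 14. The pseudogenes SDHAP1 (0.0862) and SDHAP4 (0.0619) changed sign too. Without mitochondrially encoded genes in the total, members took 2.02% of counts after RUVBL1 siRNA and 1.96% after control siRNA.

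With the replicate block, 25 members were higher and 21 lower (complex I 10 higher, III 3 higher, ATP synthase 2 lower). With the replicate block and length and GC offsets, 25 were higher (complex I 11, III 3), complex II and ATP synthase had 2 lower each, and medians were -0.019 for complex II and 0.0077 for complex III. The block kept all 33 calls. With offsets alone, complex II had 0 higher, and medians were -0.021 and 0.00634 for complexes II and III.

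With no filter on low counts, medians were -0.022 over all members and -0.024, -0.023, -0.028 and -0.0402 for complexes I to IV, complexes II and III had 0 higher and complex II 1 lower. With at least 50 counts in 3 libraries, medians were 0.0104 over all, 0.0079 for complex I and 0.0043 for complex III, complex I had 8 and complex IV 2 higher, and complex III 1 lower. DESeq2 gave 9 higher in complex I and 3 in complex III. Replicates 2 and 3 alone gave 2 higher in complex III, 2 lower in ATP synthase and a median of -0.022 in complex I.

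Leaving out 1 library gave 13 to 18 members higher, 15 to 19 lower and medians from -0.019 to 0.0070. By complex these ranges were 4 to 6, 10 to 13 and -0.019 to 0.0037 for I, 1 higher, 0 to 1 and -0.013 to 0.0082 for II, 0 to 1, 1 to 2 and -0.029 to 0.0028 for III, 1, 3 and -0.044 to -0.014 for IV, and 7 to 10, 1 and 0.039 to 0.094 for ATP synthase. UQCRQ was at 0.0016 with at least 50 counts and between -0.0388 and 0.0020 without 1 library. NDUFV2P1 was at -0.0118 with replicates 2 and 3 and between -0.0025 and 0.192 without 1 library. SDHAP1 was at 0.0077 with offsets, 0.0090 with offsets and block, and between -0.0931 and 0.0495 without 1 library, and SDHAP4 between -0.0908 and 0.0431. With 3 libraries a group, changes of the size seen here rest on a small spread between libraries that may be technical.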
